A study of Mus musculus with 20 samples.

Results

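The 44 genes described here are markers of the cells that accompany neurons in cortex: 12 astrocyte genes, 2 radial glia genes, 8 genes of the oligodendrocyte lineage, 9 microglial genes, 5 endothelial genes, 3 mural genes and 5 meningeal fibroblast genes. They were chosen by gene name as established markers, and all 44 were found among the 21300 gene symbols of the table. Their levels were measured in primary mouse cortical neuron cultures (C57Bl6, embryonic day 17, 8 days in vitro, irradiated at 254 nm to crosslink RNA to protein). FMRP, the RNA-binding protein encoded by Fmr1, was the target of the crosslinking immunoprecipitation (CLIP), and total RNA of the same culture served as Input. The 20 arrays form 4 groups of 5 cultures: CLIP RNA of Fmr1 knockout cultures, CLIP RNA of wild-type cultures, Input RNA of knockout cultures and Input RNA of wild-type cultures. The knockout is labelled KO-Fmr1, with no allele named, and a knockout culture should hold no FMRP to precipitate, so its CLIP shows what the procedure recovers without the target. The labels give neither the sex of the embryos nor whether embryos were pooled per culture, nor any drug against dividing cells.

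Neurons are born from radial glia, which later give rise to astrocytes and contribute to the oligodendrocyte lineage. Astrocytes clear glutamate and couple to each other through gap junctions. Oligodendrocyte precursors divide and migrate before they make myelin. Microglia and endothelial cells come from outside the neural lineage, and mural cells and fibroblasts belong to the vessels and the meninges. A culture of dissociated cortex can carry over a little of each, so these genes describe how pure a neuronal culture is and how much that differs from dish to dish. In bulk RNA, fewer cells of a type and less RNA per cell cannot be told apart.

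The targeted gene followed the genotype labels. Fmr1 lay between 3.81 and 4.03 in the knockout CLIP arrays and between 6.20 and 6.80 in the wild-type CLIP arrays, all values being log2 array signal. In Input it lay between 3.98 and 4.34 in knockout and between 5.49 and 6.03 in wild type. Neuronal markers were present as labelled: all 25 measured genes of a neuronal list were above background in every group. Background was set by the 1116 olfactory receptor genes (symbols starting with Olfr), which cortical cells hardly express. The 95th percentile of their mean levels was 4.59 in knockout CLIP, 4.60 in wild-type CLIP, 5.00 in knockout Input and 4.93 in wild-type Input. Because probes differ in how strongly they bind, levels are not ranked between genes, and a gene under this line may still be expressed.

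Of the 44 markers, 34 were above background in at least 1 group and 31 in all 4. Every astrocyte (12 of 12), radial glia (2 of 2) and oligodendrocyte lineage marker (8 of 8) was above background in all groups. Among the other classes the picture was uneven. Microglial markers passed for 4 of 9, namely Cx3cr1 (a chemokine receptor), Tyrobp (a signalling adaptor), C1qa (a complement subunit) and Cd68 (a lysosomal protein), while Aif1, Csf1r, Itgam, C1qb and P2ry12 passed in no group. Of the endothelial markers only Cldn5, a tight junction protein, passed, and Pecam1 and the receptors Kdr, Flt1 and Tek did not. All 3 mural genes passed in at least 1 group, but only Acta2, smooth muscle actin, passed in all of them, and Vtn, which had 4.61 in knockout CLIP, passed in that group alone. The fibroblast collagens Col1a1, Col1a2 and Col3a1 and the matrix proteoglycan Dcn passed in all groups, and Lum, a related proteoglycan, in none.

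**Figure D1:**
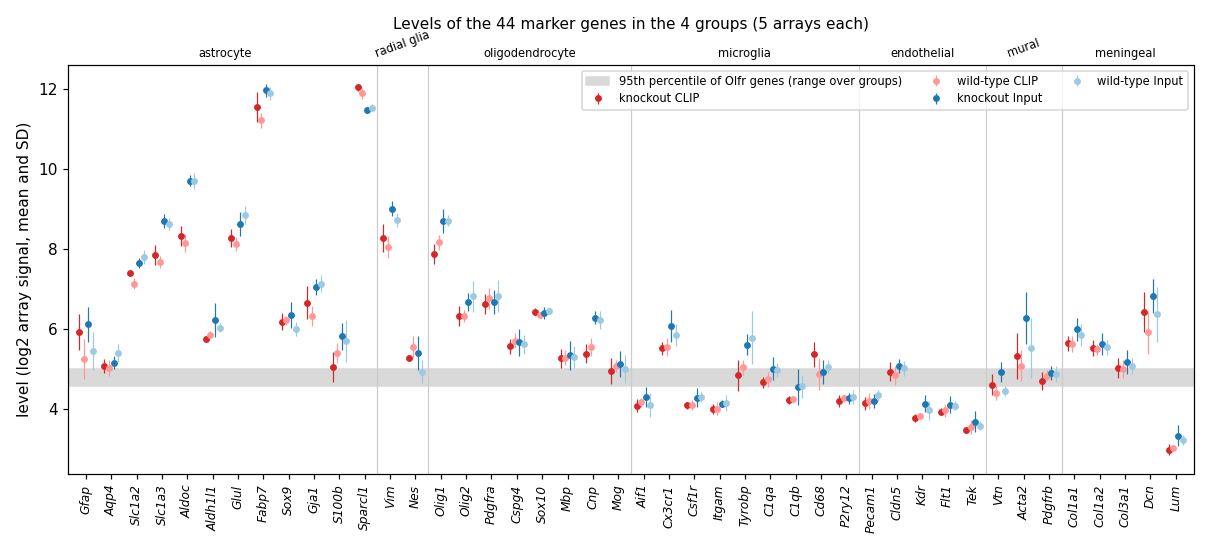
Mean level of each of the 44 markers (log2 array signal, vertical axis) in the 4 groups, with bars for the SD over 5 arrays; genes stand in the order of their cell class. The grey band spans the background lines of the 4 groups (4.59 to 5.00); all astrocyte and oligodendrocyte markers lie above their own group's line, and most microglial and endothelial ones lie below it.

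In wider lists of the same cell types, genes above background in at least 1 group were 18 of 19 other astrocyte genes, 7 of 15 other oligodendrocyte genes, 5 of 17 other microglial genes, 7 of 13 other endothelial genes, 4 of 10 other mural genes and 10 of 16 other meningeal genes. Across all 21300 genes it was 13826.

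The first comparison asked which of these messages were recovered with the CLIP procedure more or less than their share of total RNA. Most glial markers that changed were lower in CLIP than in Input, in both genotypes. In knockout cultures 14 of 44 markers were lower and 1 was higher (limma with Benjamini-Hochberg adjustment over all genes, adjusted p under 0.05). Among all genes, 18.4% were lower and 16.1% higher in the same comparison, 34.4% in all. Without knockout CLIP culture 5, 9 markers passed in knockout. In wild-type cultures 12 were lower and 2 higher, against 16.3% lower and 17.1% higher of all genes, 33.4% in all. The lower markers were unevenly spread over the classes. In wild type 7 of 12 astrocyte, 3 of 8 oligodendrocyte, 1 of 2 radial glia and 1 of 9 microglial markers were lower. No endothelial, mural or meningeal marker was lower there. In knockout it was 5 astrocyte, 2 oligodendrocyte, 1 radial glia, 3 microglial, 1 endothelial, 1 mural and 1 meningeal marker. The median difference, CLIP minus Input, was -0.23 over the 44 markers and -0.13 over all genes in knockout, and -0.19 over the markers and -0.09 over all genes in wild type. Neuronal genes went the other way: 14 of 25 were higher and 1 lower in knockout, and 11 were higher and 1 lower in wild type, with median differences of 0.43 in knockout and 0.36 in wild type. The markers lower in both genotypes were 7, that is 7 of the 14 in knockout and 7 of the 12 in wild type (10.6% of all genes were lower in both): Slc1a3, Aldoc, Fabp7, Vim, Olig1, Cnp and Tyrobp. Sparcl1 alone was higher in both.

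**Figure D2:**
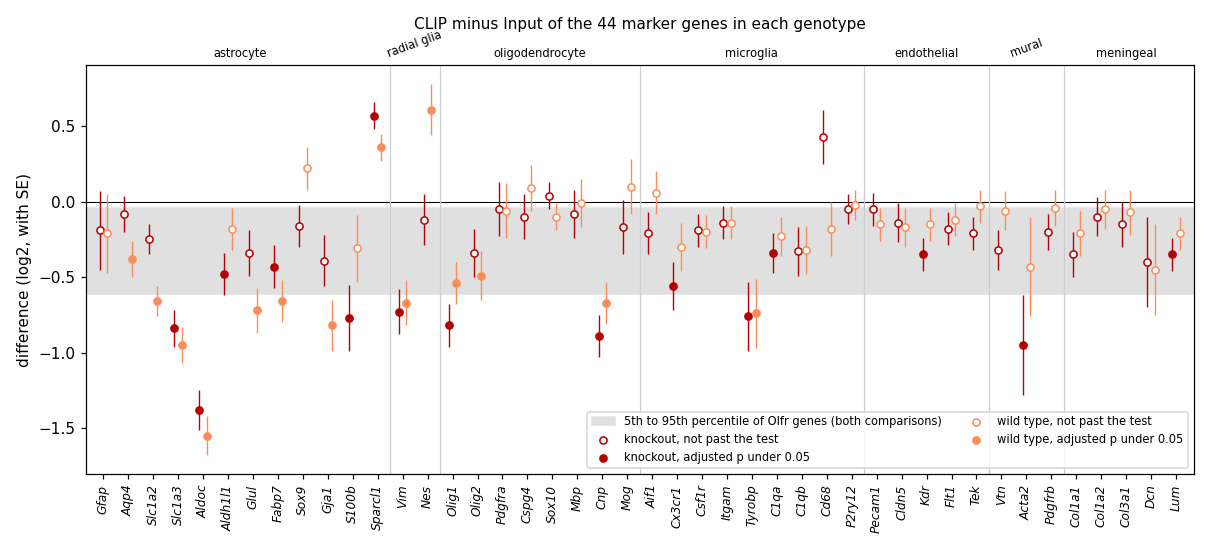
Difference CLIP minus Input (log2, vertical axis, bars for the SE) of each marker in knockout and in wild-type cultures; filled points passed the test. The grey band holds the 5th to 95th percentiles of the Olfr genes in both comparisons; Aldoc lies lowest at -1.38 in knockout and -1.55 in wild type, and Sparcl1 lies above 0 in both.

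Aldoc had the largest difference of the 44 markers in both genotypes. Aldoc, a glycolytic aldolase of astrocytes, had CLIP values of 8.35, 8.35, 8.51, 8.53 and 7.92 in knockout, against Input values of 9.84, 9.54, 9.78, 9.59 and 9.79. Its wild-type CLIP values were 8.20, 8.19, 7.97, 7.95 and 8.49, against Input values of 9.38, 9.67, 9.87, 9.86 and 9.79. CLIP and Input did not overlap in either genotype. The difference was -1.38 ± 0.13 in knockout (SE, 2.60-fold lower, adjusted p = 1.02e-07 in limma) and -1.55 ± 0.13 in wild type (2.94-fold lower, adjusted p = 9.49e-09). The glutamate transporter Slc1a3 (GLAST) was lower by a similar pattern, by 1.79-fold in knockout and 1.93-fold in wild type, again without overlap. Fabp7, a fatty acid binding protein of radial glia and young astrocytes, was 1.34-fold lower in knockout and 1.59-fold lower in wild type. After quantile normalization it passed in neither genotype, with adjusted p of 0.257 in knockout and 0.0853 in wild type. In knockout it also missed without any 1 of CLIP cultures 1 and 5 and Input cultures 2 and 3.

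Sparcl1 was the 1 astrocyte member that was higher in CLIP by the test. This secreted matrix protein, also made by neurons and vascular cells, had CLIP values of 12.18, 12.04, 11.99, 11.98 and 12.02 in knockout, against Input values of 11.52, 11.37, 11.53, 11.49 and 11.43. The wild-type CLIP values were 11.78, 12.11, 11.78, 11.93 and 11.85, against Input values of 11.65, 11.40, 11.56, 11.50 and 11.54. Every CLIP array was above every Input array of its genotype. Sparcl1 was 1.49-fold higher in knockout (adjusted p = 2.88e-05 in limma) and 1.29-fold higher in wild type (adjusted p = 0.00248).

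Several astrocyte genes passed in 1 genotype only, which by itself does not show that the genotypes differ. Lower in wild type were the water channel Aqp4 (-0.38), the glutamate transporter Slc1a2 (GLT-1, -0.66), glutamine synthetase Glul (-0.72) and the connexin Gja1 (-0.82), where the knockout differences were -0.08, -0.25, -0.34 and -0.39. For Slc1a2 the knockout CLIP arrays nonetheless lay below all knockout Input arrays (adjusted p = 0.0551 in limma). With the culture as a block, Gja1 also passed in knockout (adjusted p = 0.0476). Lower in knockout were the folate enzyme Aldh1l1 (-0.48) and the calcium-binding S100b (-0.77), where the wild-type differences were -0.18 and -0.31. No marker passed the test of the genotype difference in CLIP minus Input: 0 of 44 at adjusted p under 0.05 in limma (0.0188% of all genes), and 3 of 44 at an unadjusted p under 0.05 (4.19% of all genes). Those 3 were Nes, Slc1a2 and Cd68, with unadjusted p of 0.00613, 0.00808 and 0.0239 and lowest adjusted p of 0.932. Gfap and Sox9 passed in neither genotype. Glul is measured by 2 rows placed on chromosomes 1 and 11 under the same accession, and RefSeq places the gene on chromosome 1, so its mean over both rows is uncertain. On the chromosome 1 row Glul averaged 9.25 in knockout CLIP and 9.49 in knockout Input, and 9.17 in wild-type CLIP and 9.64 in wild-type Input. The other row averaged 7.30 in knockout CLIP and 7.74 in knockout Input, and 7.09 in wild-type CLIP and 8.05 in wild-type Input, so both were lower in CLIP.

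The wider astrocyte list moved the same way as the members. Of its 19 genes, 10 were lower in knockout and 11 in wild type, and 10 of these were shared. They included Mfge8 (-1.90 in knockout, -1.63 in wild type), a secreted bridge for phagocytosis, the lipoprotein Apoe (-1.55 and -1.54) and the protease inhibitor Cst3 (-1.49 and -1.38). Tnc, a large matrix glycoprotein of radial glia and astrocytes, was the 1 gene of that list that was higher, by 1.75 in knockout and 1.79 in wild type. Fn1, fibronectin, likewise was the 1 gene of the wider meningeal list that was higher, by 1.06 and 1.26. Smaller shares were lower in the other wider lists, given here for knockout and then wild type. Lower were 4 and 2 of 15 oligodendrocyte genes and 3 and 4 of 17 microglial genes. Also lower were 3 and 3 of 13 endothelial, 2 and 1 of 10 mural and 0 and 1 of 16 meningeal genes. Among all genes, 18.4% were lower in knockout and 16.3% in wild type.

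The 2 radial glia genes, both intermediate filaments, behaved differently from each other. Vim had CLIP values of 8.25, 8.32, 8.59, 8.52 and 7.73 in knockout, against Input values of 9.05, 8.88, 9.31, 9.0 and 8.83. In wild type the CLIP values were 8.08, 8.48, 8.06, 7.73 and 7.94, against Input values of 8.77, 8.94, 8.82, 8.53 and 8.60. Each CLIP array lay below all Input arrays of its genotype, and Vim was 1.66-fold lower in knockout and 1.59-fold lower in wild type. Nes had CLIP values of 5.25, 5.25, 5.29, 5.38 and 5.24 in knockout, against Input values of 5.86, 5.13, 5.71, 4.83 and 5.49. Its wild-type CLIP values were 5.65, 5.63, 5.43, 5.18 and 5.90, against Input values of 5.19, 4.72, 4.92, 5.29 and 4.61. Fractions overlapped in both genotypes. Nes was 1.53-fold higher in CLIP in wild type (adjusted p = 0.00817 in limma), while the knockout difference of -0.12 did not pass. In a list of progenitor and cycling genes, 3 of 12 were higher in each genotype, namely Mki67, Cenpe and Pax6, and none was lower.

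In the oligodendrocyte lineage, Olig1 and Cnp were lower in CLIP in both genotypes and Olig2 in wild type, and the other 5 genes did not pass. Olig1, a transcription factor of the lineage, had CLIP values of 7.93, 7.98, 8.24, 7.61 and 7.64 in knockout, against Input values of 8.93, 8.53, 8.83, 8.25 and 8.94. In wild type the CLIP values were 8.21, 8.06, 7.92, 8.29 and 8.38, against Input values of 8.52, 8.68, 8.67, 8.78 and 8.90. The fractions did not overlap in either genotype, and Olig1 was 1.76-fold lower in knockout and 1.45-fold lower in wild type. Cnp, a myelin phosphodiesterase, had CLIP values of 5.69, 5.51, 5.19, 5.46 and 5.13 in knockout, against Input values of 6.11, 6.17, 6.20, 6.44 and 6.50. Its wild-type CLIP values were 5.59, 5.66, 5.80, 5.55 and 5.20, against Input values of 6.58, 6.05, 6.19, 6.01 and 6.32. Again no CLIP array reached the Input arrays, and Cnp was 1.85-fold lower in knockout and 1.59-fold lower in wild type.

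Olig2, the partner factor of Olig1, had CLIP values of 5.93, 6.55, 6.52, 6.37 and 6.33 in knockout, against Input values of 6.73, 6.71, 6.43, 6.52 and 7.01. The wild-type CLIP values were 6.10, 6.38, 6.46, 6.44 and 6.30, against Input values of 6.42, 7.44, 6.91, 6.74 and 6.60. The fractions overlapped slightly in both genotypes, and Olig2 passed in wild type (-0.49, adjusted p = 0.0215 in limma) but not in knockout (-0.34, adjusted p = 0.0991). Without wild-type CLIP culture 1 or without wild-type Input culture 2, the wild-type call was lost, with adjusted p of up to 0.0791. The precursor genes Pdgfra and Cspg4, the factor Sox10 and the myelin genes Mbp and Mog had differences between -0.17 and 0.10, and none passed. Mog, the late myelin glycoprotein, had values of 4.83, 4.94, 4.50, 5.28 and 5.28 in knockout CLIP, 5.00, 5.31, 5.17, 5.08 and 4.92 in wild-type CLIP, 4.91, 5.15, 5.04, 5.69 and 4.88 in knockout Input and 4.77, 5.37, 4.95, 5.31 and 4.57 in wild-type Input. These groups overlapped throughout and lay close to the background line.

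Among microglial genes Tyrobp was lower in CLIP in both genotypes. Its CLIP values were 4.96, 4.62, 4.80, 5.45 and 4.43 in knockout, against Input values of 5.64, 5.44, 5.33, 6.0 and 5.62, and 4.92, 4.95, 5.30, 4.89 and 5.21 in wild type, against Input values of 5.46, 5.45, 6.82, 5.16 and 6.04. The ranges overlapped in both genotypes, and Tyrobp was 1.69-fold lower in knockout and 1.67-fold lower in wild type. In the fit without a block the call was sensitive to single arrays. Adjusted p in limma was 0.052 in knockout without CLIP culture 5, and 0.0637 in wild type without Input culture 3. In every culture, however, Tyrobp was lower in CLIP than in Input of that same culture. With the culture as a block, it passed in both genotypes (adjusted p = 0.00129 in knockout and 0.0014 in wild type, limma). Cx3cr1 had CLIP values of 5.60, 5.36, 5.38, 5.74 and 5.51 in knockout, against Input values of 5.62, 6.43, 6.08, 6.49 and 5.76. Its wild-type CLIP values were 5.41, 5.72, 5.85, 5.28 and 5.50, against Input values of 5.49, 5.84, 6.05, 5.71 and 6.21. It was 1.47-fold lower in knockout (adjusted p = 0.0127 in limma) and did not pass in wild type (-0.30, adjusted p = 0.16). C1qa passed in knockout (-0.34, adjusted p = 0.047) but missed under 12 of 25 other settings. The genes under the background line, Aif1, Csf1r, Itgam, C1qb and P2ry12, had differences between -0.33 and 0.06, and none passed.

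The background itself was lower in CLIP. Over the 1116 Olfr genes the median difference, CLIP minus Input, was -0.29 in knockout and -0.25 in wild type, and 39.6% of them were lower in knockout and 28.6% in wild type. The endothelial receptor Kdr and the proteoglycan Lum, both under the background line in every group, had differences of -0.35 each in knockout, which passed, beside that shift; whether it accounts for them was not tested. Without these background genes, 12 of the 34 markers above background in at least 1 group were lower in each genotype, against 15.1% in knockout and 15.3% in wild type of the 13826 genes above background by the same rule.

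Vascular and fibroblast markers above background gave 1 call. Acta2 had CLIP values of 5.23, 4.93, 6.20, 5.56 and 4.73 in knockout, against Input values of 6.63, 5.92, 6.84, 6.70 and 5.31. In wild type its CLIP values were 5.06, 5.52, 5.40, 4.60 and 4.85, against Input values of 5.45, 6.48, 6.06, 4.78 and 4.81. Fractions overlapped in both genotypes. Acta2 was 1.93-fold lower in knockout (adjusted p = 0.031 in limma) and 1.35-fold lower in wild type without passing (adjusted p = 0.329). In the fit without a block, the knockout call was lost when any 1 of several arrays was left out, with adjusted p of up to 0.0887. These were knockout CLIP cultures 1, 2 and 5 and knockout Input cultures 1, 3 and 4. Within each knockout culture, Acta2 was nonetheless lower in CLIP than in Input. With the culture as a block, it passed in knockout (adjusted p = 1.30e-04 in limma). Dcn, with differences of -0.40 in knockout and -0.45 in wild type, did not pass in either genotype. With the culture as a block, Acta2 (adjusted p = 0.0315) and Dcn (adjusted p = 0.0314) passed in wild type, and Vtn (adjusted p = 0.0259) and Col1a1 (adjusted p = 0.0168) in knockout, all lower in CLIP. Cldn5 had CLIP values of 4.78, 4.99, 4.69, 5.28 and 4.95 in knockout, against Input values of 5.01, 5.23, 4.87, 5.26 and 5.01, and 4.64, 5.03, 5.13, 4.59 and 4.86 in wild type, against Input values of 4.94, 5.35, 4.89, 5.02 and 4.93. Its fractions overlapped, and its differences of -0.14 in knockout and -0.17 in wild type did not pass. The collagens and Pdgfrb, a receptor of pericytes, had differences between -0.35 and -0.04, and none passed without the block.

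The second comparison asked whether the loss of Fmr1 changed the glial and vascular content of the cultures. In Input, 0 of the 44 markers passed (limma, lowest adjusted p = 1, against 0.00469% of all genes, which is Fmr1 itself). At an unadjusted p under 0.05 there were 6 of 44, against 3.71% of all genes, and all 6 had higher means in knockout: Gfap, Sox9, Vim, Nes, Vtn and Acta2. No marker had knockout and wild-type arrays that did not overlap in Input, against 0.69% of all genes. In CLIP, 0 of the 44 passed (lowest adjusted p = 0.411, against 0.122% of all genes, 0.00939% higher and 0.113% lower), and 5 had an unadjusted p under 0.05, against 7.19% of all genes. These counts do not show that levels were equal.

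**Figure D3:**
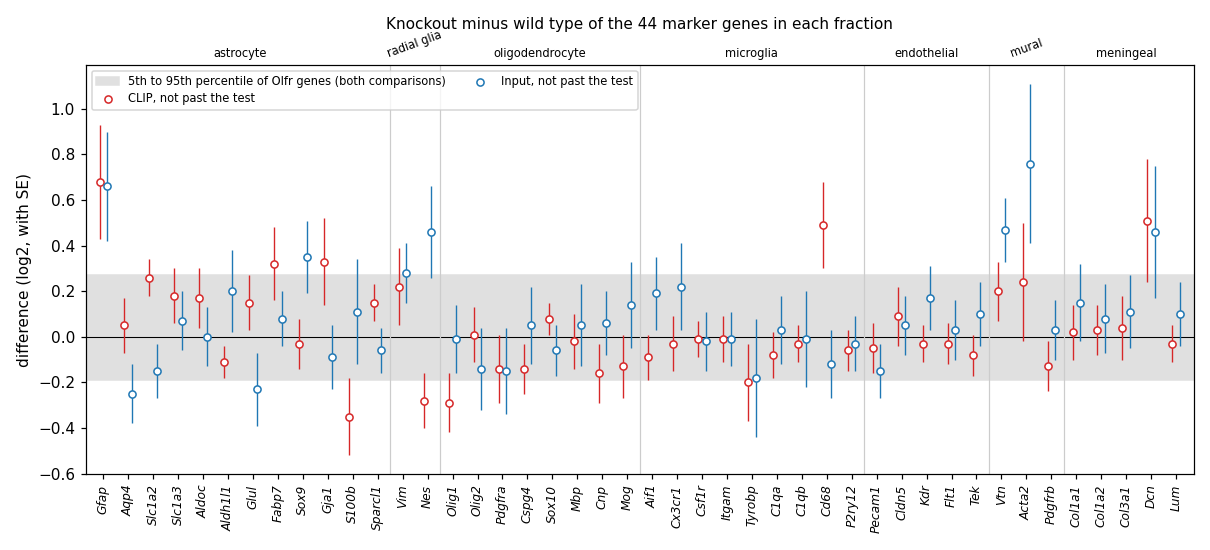
Difference knockout minus wild type (log2, vertical axis, bars for the SE) of each marker in CLIP and in Input; open points did not pass the test, and none passed. The grey band holds the 5th to 95th percentiles of the Olfr genes in both fractions; Gfap lies at 0.68 in CLIP and 0.66 in Input, and Acta2 at 0.76 in Input.

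Gfap, the intermediate filament of astrocytes, had Input values of 6.21, 5.38, 6.42, 6.19 and 6.42 in knockout, against 5.54, 5.15, 6.05, 4.83 and 5.73 in wild type. Its CLIP values were 5.74, 5.25, 5.98, 6.38 and 6.32 in knockout, against 5.70, 5.37, 5.58, 4.44 and 5.16 in wild type. The genotypes overlapped in both fractions, and knockout culture 2 sat among the wild-type values in each. The difference was 0.66 ± 0.24 in Input (SE, 1.58-fold higher, exact two-sided permutation p = 0.0635, n = 5 each) and 0.68 ± 0.25 in CLIP (1.61-fold higher, exact p = 0.0556), and neither passed over all genes. In Input the remaining 11 members differed by -0.25 to 0.35, with 5 of them positive and Sox9 the highest. Aldoc differed by 0.00 and Slc1a3 by 0.07.

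Slc1a2 was the 1 marker whose CLIP arrays did not overlap between genotypes, against 1.67% of all genes. Its CLIP values were 7.45, 7.36, 7.42, 7.37 and 7.40 in knockout, against 7.32, 7.04, 7.20, 6.97 and 7.19 in wild type. In Input the order of the means was the opposite, with 7.77, 7.51, 7.77, 7.65 and 7.55 in knockout, against 7.61, 7.85, 7.85, 8.04 and 7.64 in wild type. The CLIP difference of 0.26 ± 0.08 (SE, 1.19-fold higher, exact permutation p = 0.00794, the smallest that 5 against 5 arrays allow) had an adjusted p of 0.411 in limma. The Input difference was -0.15 ± 0.12.

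Nes and Cd68 also had opposite signs of the genotype difference in the 2 fractions. Nes differed by 0.46 ± 0.20 in Input (SE, unadjusted p = 0.0372 in limma) and by -0.28 ± 0.12 in CLIP (unadjusted p = 0.035 in limma). Cd68 had CLIP values of 5.66, 4.95, 5.47, 5.13 and 5.65 in knockout, against 5.57, 4.77, 4.78, 4.57 and 4.71 in wild type. Its Input values were 4.86, 5.30, 4.56, 5.21 and 4.79 in knockout, against 4.90, 5.29, 5.15, 4.96 and 5.02 in wild type. Wild-type culture 1 was the 1 wild-type CLIP array within the knockout range, and the difference of 0.49 ± 0.19 in CLIP (adjusted p = 0.565 in limma) did not pass. Olig1 and Olig2 differed by -0.01 and -0.14 in Input and by -0.29 and 0.01 in CLIP.

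Vtn, vitronectin, an adhesion protein that pericytes secrete in brain, had the lowest unadjusted p of the members in Input. Its Input values were 4.88, 4.86, 5.26, 5.07 and 4.59 in knockout, against 4.53, 4.46, 4.62, 4.29 and 4.41 in wild type, and its CLIP values were 4.56, 4.38, 4.78, 4.96 and 4.38 in knockout, against 4.14, 4.59, 4.51, 4.30 and 4.50 in wild type. Knockout Input culture 5 was the 1 knockout Input array that did not exceed the highest wild-type one. The difference was 0.47 ± 0.14 in Input (SE, exact permutation p = 0.0159, n = 5 each, adjusted p = 1 in limma). Both Input means of Vtn, 4.93 in knockout and 4.46 in wild type, were below their background lines. Tek and Pecam1, endothelial genes under the background line, had differences of 0.10 and -0.15 in Input and -0.08 and -0.05 in CLIP. The collagens Col1a1, Col1a2 and Col3a1 differed by 0.15, 0.08 and 0.11 in Input and by 0.02, 0.03 and 0.04 in CLIP. Tek lay between 3.40 and 3.59 in knockout CLIP, between 3.39 and 3.79 in wild-type CLIP, between 3.35 and 4.0 in knockout Input and between 3.47 and 3.72 in wild-type Input. Pecam1 lay between 3.98 and 4.41 in knockout CLIP, between 4.01 and 4.51 in wild-type CLIP, between 4.01 and 4.41 in knockout Input and between 4.15 and 4.49 in wild-type Input.

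Averaged over each cell class, genotypes differed by less than the SD between cultures for 4 of the 7 classes in Input. The astrocyte mean was 7.90 ± 0.16 in knockout and 7.85 ± 0.10 in wild type, and the oligodendrocyte mean 6.36 ± 0.12 and 6.37 ± 0.07 (SD, n = 5 each). The microglial mean was 4.80 ± 0.21 in knockout and 4.79 ± 0.17 in wild type, and the endothelial mean 4.25 ± 0.19 and 4.20 ± 0.06. Higher in knockout by more than 1 SD of either group were the radial glia mean (7.21 ± 0.26 in knockout, 6.84 ± 0.14 in wild type), the mural mean (5.37 ± 0.27 and 4.95 ± 0.27) and the meningeal mean (5.40 ± 0.17 and 5.21 ± 0.11). The mural score was carried by Acta2 (0.76) and Vtn (0.47), beside 0.03 for Pdgfrb, and the meningeal score by Dcn (0.46), beside 0.08 to 0.15 for the other 4. With the median over members in place of the mean, the meningeal values were 5.63 in knockout and 5.55 in wild type, no longer more than 1 SD apart, and the mural values 5.05 and 4.80. These scores were not tested, because their members were chosen with earlier results known.

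The third question was how much these markers differed from culture to culture. The median SD over 5 arrays was 0.22 for the markers and 0.17 for all genes in knockout CLIP, 0.18 and 0.17 in wild-type CLIP, 0.26 and 0.25 in knockout Input and 0.20 and 0.22 in wild-type Input. Above the 95th percentile of all genes' SDs were 5 markers in knockout CLIP, 4 in wild-type CLIP, 1 in knockout Input and 5 in wild-type Input. The 5 in knockout CLIP were Gfap, Gja1, Tyrobp, Acta2 and Dcn, the 4 in wild-type CLIP Gfap, Cd68, Acta2 and Dcn, the 1 in knockout Input Acta2, and the 5 in wild-type Input Gfap, S100b, Tyrobp, Acta2 and Dcn. Acta2 had SDs of 0.58, 0.38, 0.65 and 0.75, Dcn 0.51, 0.53, 0.42 and 0.68, and Gfap 0.46, 0.50, 0.43 and 0.48, each in knockout CLIP, wild-type CLIP, knockout Input and wild-type Input. Sparcl1, with SDs of 0.07 to 0.14, and Sox10, with 0.06 to 0.15, were steady.

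**Figure D4:**
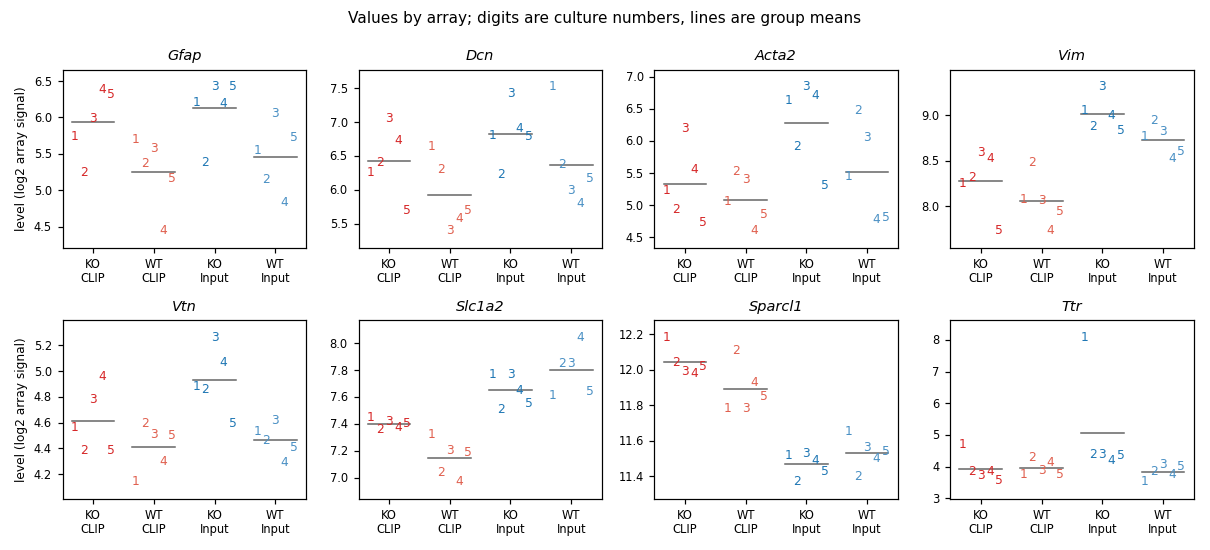
Level (log2 array signal, vertical axis) of 8 genes in each array, with groups from left to right and the culture number as the symbol; grey lines are group means. Acta2, Vim and Vtn are highest in knockout Input culture 3 among knockout Input arrays, Slc1a2 separates the CLIP genotypes, and Ttr reaches 8.07 in knockout Input culture 1.

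Cultures rich in Acta2 were also rich in Vim. In wild-type Input both genes had the same order of cultures from high to low, 2, 3, 1, 5 and 4. In knockout Input, culture 3 was highest and culture 5 lowest for Acta2, Vim and Vtn. The astrocyte gene Slc1a3 had the same highest and lowest culture there (8.91 and 8.48). Culture 3 of knockout Input was also highest for Aqp4, Aldh1l1, Glul, Sox9, Gja1 and Sparcl1, and for the astrocyte mean (8.12). A high culture 3 was therefore not particular to Acta2, Vim and Vtn. In wild-type Input, Vtn was instead highest in culture 3, and in knockout CLIP in culture 4. Dcn shared the high knockout culture 3 but followed another order in wild type. Its Input values were 6.80, 6.23, 7.42, 6.90 and 6.78 in knockout, against 7.52, 6.38, 5.99, 5.79 and 6.17 in wild type, and its CLIP values 6.25, 6.40, 7.05, 6.73 and 5.70 in knockout, against 6.64, 6.30, 5.39, 5.57 and 5.69 in wild type. Wild-type culture 1 was highest for Dcn in both fractions and stood behind cultures 2 and 3 for Acta2. This ordering was seen in the data and was not tested.

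Because Acta2, Vim and Vtn shared their highest and lowest culture in knockout Input, the 250 bases upstream of their RefSeq starts (GRCm38.p6) are shown, 5′ to 3′ on the gene's strand, with matches to TATAAA or CCAAT on either strand in capitals. All 3 were chosen after their values were seen, and Slc1a3, whose sequence is not shown, shared the same highest and lowest culture.
Acta2, chr19:34255374-34255623, minus strand: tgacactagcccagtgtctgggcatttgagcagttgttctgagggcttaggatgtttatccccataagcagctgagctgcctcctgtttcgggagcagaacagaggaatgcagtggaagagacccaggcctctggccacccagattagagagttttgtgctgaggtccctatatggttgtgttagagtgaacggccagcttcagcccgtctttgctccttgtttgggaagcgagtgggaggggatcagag
Vim, chr2:13574061-13574310, plus strand: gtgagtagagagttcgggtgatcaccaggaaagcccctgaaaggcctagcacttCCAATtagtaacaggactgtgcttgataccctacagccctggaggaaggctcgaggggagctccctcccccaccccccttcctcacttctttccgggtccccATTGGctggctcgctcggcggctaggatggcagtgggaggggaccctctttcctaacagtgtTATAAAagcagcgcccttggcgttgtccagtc
Vtn, chr11:78498870-78499119, plus strand: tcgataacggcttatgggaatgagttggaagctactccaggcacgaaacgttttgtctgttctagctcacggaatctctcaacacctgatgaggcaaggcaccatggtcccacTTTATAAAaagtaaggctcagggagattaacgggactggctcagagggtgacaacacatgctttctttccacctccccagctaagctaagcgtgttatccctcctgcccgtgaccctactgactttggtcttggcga
TATAAA, the letters of a core promoter element, begins 32 bases before the start in Vim and 135 bases before it in Vtn, where it overlaps a match on the other strand. Of all 32851 promoters in the table, 12.4% hold it in this window. CCAAT occurs 2 times in Vim, and 33.8% of promoters hold it. GGGCGG and TGANTCA, searched likewise and held by 32.7% and 6.75% of promoters, were in none of the 3. No motif among these 4 was found in all 3 windows, which is a description of letters only.

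One culture stood apart through a gene outside the list. Ttr, transthyretin, the main secreted protein of choroid plexus, was 8.07 in knockout Input culture 1, against 4.19 to 4.39 in the other knockout Inputs and 3.52 to 4.06 in the wild-type Inputs. In CLIP the same culture had 4.69, against 3.55 to 3.86 in the other knockout arrays. The other 5 genes of the choroid plexus and ependyma list, Foxj1, Kl, Clic6, Folr1 and Otx2, were not raised with it: knockout Input culture 1 had 4.24, 4.05, 3.66, 5.74 and 3.32, each no higher than the highest of the other knockout Inputs. Of the 6 genes, 2 were above background in at least 1 group. Without that Input array, 0 of 44 again passed in Input. The knockout minus wild-type differences were then 0.64 for Gfap, 0.30 for Sox9, 0.27 for Vim, 0.34 for Nes, 0.48 for Vtn, 0.68 for Acta2 and 0.47 for Dcn. Gfap and Vtn kept an unadjusted p under 0.05 in limma (0.0272 and 0.00557). Sox9, Vim, Nes and Acta2 no longer had one (0.0873, 0.0742, 0.0999 and 0.0919 in limma).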

How the data were processed

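The authors deposited log2 values made by robust multi-array averaging (RMA) with Affymetrix Expression Console 1.1, per the submitters' processing notes. RMA pulls low signals together, so log2 differences near background understate changes. The labels name a Mouse Exon 1.0 ST array, the build of its annotation is unstated there, and the RNA was amplified with NuGEN kits, per the labels' protocols. The table's 24551 features were averaged to 21300 symbols, after 7 summary lines and 1 unnamed feature were left out. Array medians lay between 5.30 and 5.44, and the 20 arrays limit the precision. Group differences were fitted in R 4.3.3 by limma 3.58.1 (two-sided, lmFit and eBayes, Benjamini-Hochberg over all symbols): genotypes on 10 arrays per fraction, CLIP minus Input and its genotype difference on all 20. Single genes were also compared by exact permutation over arrays. The fit was tested on simulated data with changes of known size. Of changes of 0.5 log2, 20% were recovered for genotype in Input and 44% for genotype in CLIP. For CLIP minus Input it was 40% in each genotype, and for its genotype difference 10%. The simulation changed only 50 genes per size, while 34.4% (knockout) and 33.4% (wild type) of genes were called between CLIP and Input in the data. The adjustment is less strict where more genes differ, so the 40% may understate recovery in the real CLIP minus Input comparison. Of changes of 1 log2, 80% were recovered for genotype in Input, 78% for genotype in CLIP and 66% for the genotype difference in CLIP minus Input. Members and lists were chosen with earlier results of these data known. Array values are given for the members with the largest CLIP difference in each direction or the lowest p per class, and for members with an outlying array.

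Per the labels, cultures are separate and without technical repeats. Same-numbered CLIP and Input arrays of a genotype share a culture, since the design counts 10 cultures, and the deposited log2 ratio columns equal CLIP minus Input of the same number (largest difference 0). Their deviations from group means correlated at -0.136 to 0.466 in knockout and 0.0516 to 0.258 in wild type. The main fit did not pair knockout with wild-type cultures by number. Deviations of same-numbered knockout and wild-type arrays correlated at -0.2 to 0.432 in CLIP and -0.245 to 0.568 in Input. Whether such cultures shared a preparation or batch was not tested. Alternatives were other scalings, a filter on low values, single rows, a mean-dependent prior, a block and each array left out. The block was the culture for CLIP minus Input and its genotype difference. For the genotype comparisons within a fraction the block was the replicate number. A planned description by protein length was not made.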

Additional observations from a re-analysis of the deposited data

Results flagged for a closer look

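Among 176 groups of 5 arrays (44 markers in 4 groups), 11 had 1 array far from the other 4 by Dixon's test, where chance gives about 1 in 20. Low arrays were Gfap in knockout Input culture 2 (5.38, the others 6.19 to 6.42), Aldoc in knockout CLIP culture 5 (7.92, the others 8.35 to 8.53), Sox9 in knockout CLIP culture 1 (5.81, the others 6.24 to 6.34) and Gja1 in wild-type CLIP culture 3 (5.88, the others 6.38 to 6.57). High arrays among glial genes were Mbp in wild-type Input culture 3 (5.79, the others 5.15 to 5.21), Aif1 in knockout Input culture 4 (4.73, the others 4.10 to 4.26), Itgam in wild-type CLIP culture 3 (4.30, the others 3.92 to 3.96) and Cd68 in wild-type CLIP culture 1 (5.57, the others 4.57 to 4.78). High arrays among vascular and fibroblast genes were Cldn5 in wild-type Input culture 2 (5.35, the others 4.89 to 5.02), Col1a2 in knockout CLIP culture 4 (5.88, the others 5.41 to 5.51) and Lum in knockout Input culture 2 (3.78, the others 3.13 to 3.32). Aif1, Itgam and Lum are at background level in every group. The 11 cases fell on 9 arrays, with 2 each on knockout Input culture 2 and wild-type CLIP culture 3. The causes were not tested.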

How the results depend on the processing

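In the genotype comparisons and the genotype difference in CLIP minus Input, 0 of 44 markers passed under every setting tried. In knockout, 15 markers differed between CLIP and Input, and 9 did without knockout CLIP replicate 5. Leaving out each array in turn gave 9 to 18 in knockout and 12 to 14 in wild type, where 14 differed. With the culture as a replicate block there were 18 in knockout (Gja1, Vtn and Col1a1 added) and 16 in wild type (Acta2 and Dcn added). Of the calls made in knockout, 9 (Sparcl1, Slc1a3, Aldoc, Aldh1l1, S100b, Vim, Olig1, Cnp and Cx3cr1) passed under all settings run, while C1qa, Acta2, Fabp7, Kdr, Lum and Tyrobp each missed under at least 1, with adjusted p of up to 0.352. In wild type Aqp4, Fabp7, Olig2 and Tyrobp each missed under at least 1. No called difference changed sign. Quantile normalization moved the median CLIP minus Input difference of all genes to -0.02 in knockout and -0.01 in wild type, against -0.13 and -0.09 as deposited; relative to those medians, 35 of 44 markers were lower in knockout and 30 in wild type, against 33 and 30. Kdr and Lum missed with adjusted p of 0.281 and 0.352 after it.

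Class means in Input depend on the summary. The median over members gave 7.35 in knockout and 7.47 in wild type for astrocyte genes, 4.60 in wild type for microglial genes, 4.09 in wild type for endothelial genes, 5.05 in knockout and 4.80 in wild type for mural genes, and 5.63 in knockout and 5.55 in wild type for meningeal genes. Members above background alone gave 5.41 in knockout and 5.42 in wild type for microglial genes, 5.08 and 5.02 for endothelial genes, and 5.91 and 5.71 for meningeal genes. Quantile normalization gave 4.13 for endothelial genes in wild type. The causes were not tested.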
